A study of Mus musculus with 18 samples.

Results

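The genes described here are 10 troponin and tropomyosin genes of muscle, taken as a list and matched to the count table by gene symbol: Tnnc1, Tnnc2, Tnni1, Tnni2, Tnnt1, Tnnt2, Tnnt3, Tpm1, Tpm2 and Tpm3. The table holds 55414 genes, of which 21772 had at least 10 counts in total, and 10 of the 10 listed genes were among these. RNA was measured in C2C12 myotubes, the fused form of an established mouse myoblast line. Myoblasts were transfected with non-targeting siRNA (siNTC), a siRNA pool against Erk3 (siErk3, gene Mapk6) or a pool against Mk5 (siMk5, gene Mapkapk5), and were differentiated for 6 days. Serum was then withdrawn for 16 h, in the presence of BSA as the carrier or of palmitic acid (PA, 0.5 mM) on that carrier. Each of the 6 groups (siNTC BSA, siErk3 BSA, siMk5 BSA and the same siRNAs in PA) has 3 libraries, so the control groups were also transfected and serum-starved. All libraries come from 1 cell line, and the labels do not say whether those of a group were separate cultures, so the p-values measure only the spread between these libraries, which may be technical.

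Troponin is the calcium switch of the striated muscle thin filament. Its subunit C binds calcium, subunit I inhibits the actin and myosin interaction, and subunit T ties both to tropomyosin, a coiled coil that lies along actin and covers or exposes the myosin binding sites. Each subunit is made from several genes that differ between slow, fast and cardiac muscle. Tnni1 and Tnnt1 are the slow skeletal forms, Tnni2, Tnnt3 and Tnnc2 the fast skeletal forms, Tnnc1 is shared by slow skeletal and cardiac muscle, and Tnnt2 is the cardiac form, which developing skeletal muscle also makes. Tpm1 encodes the fast alpha, Tpm2 the beta and Tpm3 the slow alpha tropomyosin of skeletal muscle, and these genes also encode shorter forms found in non-muscle cells. The counts are per gene and do not separate such splice forms.

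The libraries held 13041979 to 28496727 assigned read pairs (median 22417470), and the 10 genes together took 0.639% to 0.946% of them, between 4485 counts (Tpm3) and 42654 counts (Tpm2) in a single library for a single gene. Levels are given as CPM, the count of a gene scaled by the TMM-adjusted total of its library. Mapk6 fell with siErk3 from 132 to 57.4 CPM in BSA (edgeR FDR = 1.77e-14) and from 232 to 119.9 CPM in PA (FDR = 1.21e-12). Mapkapk5 had log2 fold changes of -0.61 in BSA and -0.48 in PA with siMk5 (edgeR FDR = 0.469 in each), at 1.18 to 3.92 CPM over the siMk5 and siNTC libraries, so the lower Mapkapk5 level did not pass the test. The paper also reports that Mk5 RNA missed its FDR threshold. It states that silencing of both kinases was efficient by Western blot. The share of counts on an 18S ribosomal RNA gene was 8.39% to 12.874% in siMk5 BSA and 1.497% to 7.167% in the other 15 libraries. Levels of cell type markers were summed beside the labelled cell type. In siNTC BSA the 10 myotube markers summed to 13422 to 14183 CPM. The 5 fibroblast markers summed to 8843.5 to 9750 CPM, the 6 smooth muscle markers to 2295 to 2406.5 CPM and the 8 cardiomyocyte markers to 1442 to 1483 CPM. Adipocyte, macrophage and endothelial markers summed to at most 0.047, 1.88 and 0.63 CPM. Myotube markers had the highest sum, but fibroblast markers were also high, and the sums do not say which cells made them.

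RefSeq promoter windows of 300 bases, from 250 before to 50 after an annotated start site, were at hand for 8 of the 10 genes, in 11 windows. Those of Tnnc1 and Tnnc2, whose balance moved with PA and with siMk5, and of Tpm1, which fell most with PA, are shown 5′ to 3′ on build GRCm38.p6. Capitals mark E-boxes (CANNTG, the motif of the myogenic factors) and M-CAT motifs (CATTCC on either strand, the motif of the Tead factors), and no marked motifs overlap one another.
Tnnc1 promoter, chr14:31208062-31208361, + strand: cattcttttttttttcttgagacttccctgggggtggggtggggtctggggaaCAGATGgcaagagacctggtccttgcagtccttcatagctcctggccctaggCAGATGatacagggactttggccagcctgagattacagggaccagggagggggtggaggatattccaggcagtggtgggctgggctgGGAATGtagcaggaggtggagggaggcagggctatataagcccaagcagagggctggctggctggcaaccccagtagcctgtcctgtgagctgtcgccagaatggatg
Tnnc2 promoter, chr2:164779685-164779984, - strand: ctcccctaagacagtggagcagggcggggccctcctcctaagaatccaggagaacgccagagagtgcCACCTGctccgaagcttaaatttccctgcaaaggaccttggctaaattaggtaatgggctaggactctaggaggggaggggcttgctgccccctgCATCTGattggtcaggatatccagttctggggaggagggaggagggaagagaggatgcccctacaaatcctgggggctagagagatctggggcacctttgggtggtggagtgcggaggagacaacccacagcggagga
Tpm1 promoter, chr9:67049164-67049463, - strand: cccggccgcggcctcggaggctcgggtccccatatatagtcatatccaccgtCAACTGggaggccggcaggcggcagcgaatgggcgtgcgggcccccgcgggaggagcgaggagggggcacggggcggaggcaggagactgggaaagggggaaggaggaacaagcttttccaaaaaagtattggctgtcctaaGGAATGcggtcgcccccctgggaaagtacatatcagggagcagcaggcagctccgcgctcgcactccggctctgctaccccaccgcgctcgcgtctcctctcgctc
An E-box was present in 11 of the 11 windows of the 8 genes and in 72.3% of all 32851 promoter windows of the table. M-CAT motifs were present in the windows of Tnnc1 and Tpm1, as GGAATG, with the first base at -58 and -56 from the start site, and in 1 of the 2 windows of Tnnt2, at -27, against 14.7% of all windows. These matches are a description of the sequence only. Tnni2 and Tnnt3 are not shown.

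The 10 genes differed in abundance, and both slow or cardiac and fast forms were present. In siNTC BSA, as CPM per kilobase of annotated exon (RPKM), Tnnc1 stood highest at 1041 ± 24.7 (SD, n = 3), the 17th of the 21772 genes. Tnnc2 followed at 668 ± 2.94, Tnnt3 at 585 ± 21.01 and Tpm2 at 485 ± 6.995 RPKM. The slow and fast troponin I genes were close to each other, Tnni1 at 278 ± 4.91 and Tnni2 at 269 ± 6.47 RPKM. Tpm1 at 217 ± 5.09 and Tnnt1 at 213 ± 4.33 RPKM also had overlapping libraries. Tnnt2 at 148 ± 4.43 and Tpm3 at 51.5 ± 0.65 RPKM came last, the latter at rank 732. The other neighbours in this order had no overlapping libraries. These levels depend on the annotated exon length, which runs from 800 bases in Tnnc2 to 7752 in Tnnt2 and includes exons that a given transcript may lack. Tnni3, the cardiac troponin I gene, had 222 counts over the 18 libraries, with 0.47 ± 0.14 RPKM in siNTC BSA, while Tnnt2 had 414832 counts.

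PA lowered some members and left others under the fold criterion. Tpm1 fell in all 3 siRNA groups, Tpm2 in 2 and Tnnc2 in 1 of them. A gene was called when its FDR was below 0.05 and it differed by more than 1.3-fold, up or down. By this rule PA against BSA called 3 of 10 members in siNTC, 2 in siErk3 and 1 in siMk5, every one of them lower, against 30.6%, 32.1% and 29.7% of all genes. At an FDR below 0.05 alone, 10, 9 and 6 members passed, against 45.1%, 47.1% and 44.3% of all genes. In siNTC 9 of these 10 were lower and Tpm3 was higher, in siErk3 9 were lower, and in siMk5 5 were lower and Tpm3 was higher. PA and BSA libraries did not overlap for 10 members in siNTC, 9 in siErk3 and 4 in siMk5, against 51.3%, 53.9% and 51.9% of all genes. The median log2 fold change of the members was -0.34, -0.26 and -0.11, and that of all genes tested was -0.025, -0.008 and -0.015. The share of members called was near the background in siNTC and below it in siErk3 and siMk5. Log2 fold changes were below 0 for 9, 9 and 8 of the 10 members, and of all genes called in siNTC 3381 were higher and 3280 lower.

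**Figure D1:**
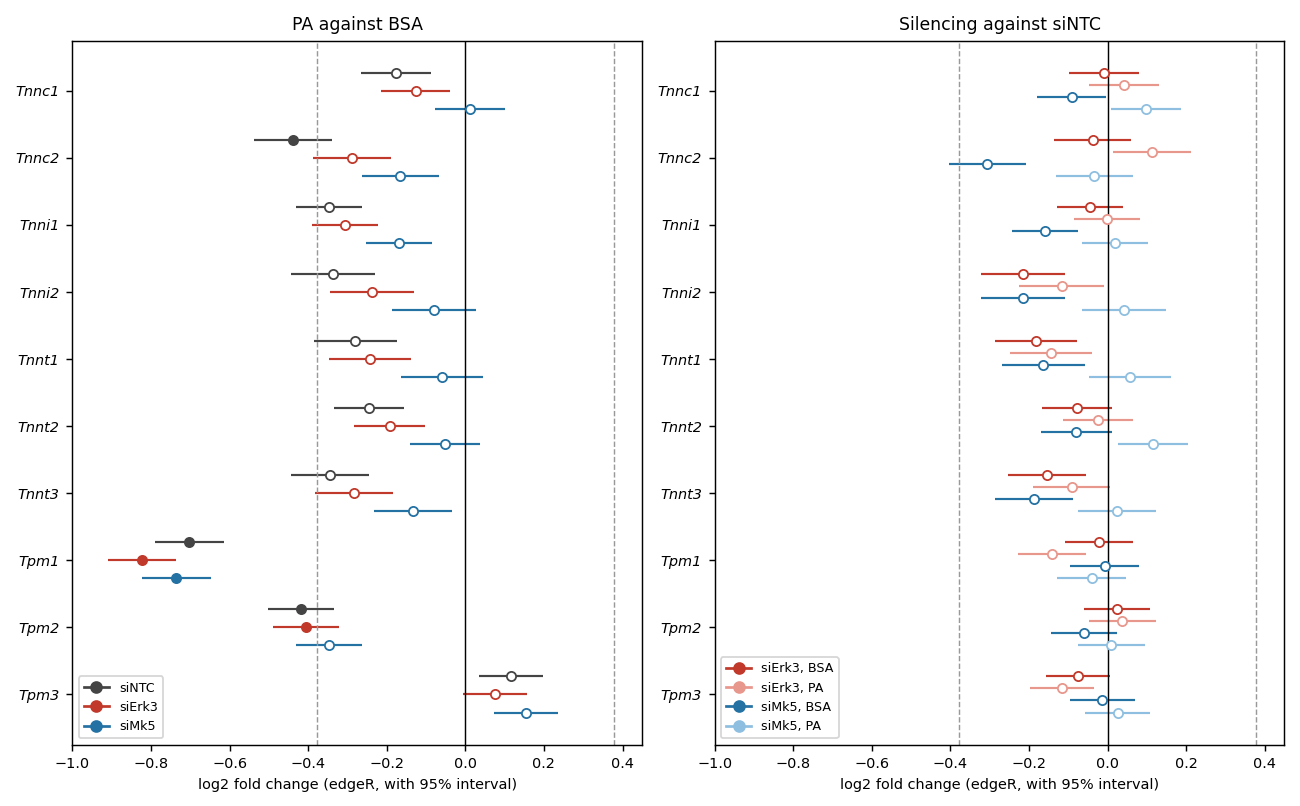
Log2 fold changes of the 10 genes (vertical axis) with 95% intervals from the edgeR fit, for PA against BSA in each siRNA group (left) and for each silencing against siNTC in each medium (right). Filled points passed both criteria, and dashed lines mark the fold change of 1.3. Tpm1 is the one gene with filled points in all 3 siRNA groups, and no point is filled on the right.

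Transcripts of other cell types and states moved with PA too. The counts of called genes below stand against 30.6%, 32.1% and 29.7% of all genes in siNTC, siErk3 and siMk5. The summed level of 8 cell cycle genes was 1172 to 1298.5 CPM over the 9 BSA libraries and 606 to 765 CPM over the 9 PA libraries, and 5, 6 and 6 of them fell in siNTC, siErk3 and siMk5. The sum of 5 fibroblast genes, mostly Col3a1 and Col1a1, was 8547 to 10830 CPM in BSA and 2598.5 to 4646 CPM in PA, and 4, 4 and 5 of them fell. The sum of 6 smooth muscle genes was 2295 to 2654 CPM in BSA and 955 to 1250.5 CPM in PA, with the defining genes Myh11 and Myocd at 70 and 64 counts over all libraries. Of these smooth muscle genes 4 fell in each siRNA group, and 1 rose in siErk3. The 10 myotube markers summed to 12222 to 15350 CPM in BSA and 11216 to 13252 CPM in PA. Of them 6, 3 and 3 fell, which is 60%, 30% and 30% of the list. The 10 markers of undifferentiated or reserve myoblasts summed to 637 to 685 CPM in BSA and 564 to 616 CPM in PA. Of these, 1 rose and 4 fell in siNTC, 1 and 5 in siErk3, and 0 and 4 in siMk5. The 8 cardiomyocyte markers, of which 6 were tested, summed to 1161 to 1615.5 CPM in BSA and 1294 to 1530 CPM in PA, nearly all of it Myl4, a myosin light chain that embryonic skeletal muscle also makes. With PA 1 of them fell in siNTC, 1 rose and 2 fell in siErk3, and 2 fell in siMk5. That is 16.7%, 50% and 33.3% of those tested. Adipocyte, macrophage and endothelial markers summed to at most 0.186, 1.91 and 1.39 CPM in any library. In bulk RNA, fewer cells of a type and less RNA per cell cannot be told apart, and the part of these other transcripts in the results below was not tested.

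Among the troponins, the C subunit had the widest gap between its 2 genes in the response to PA. In siNTC, Tnnc2 (ENSMUSG00000017300, GRCm39 chr2:164619081-164621887, minus strand) measured 534, 537 and 533 CPM in BSA and 403, 390 and 391 CPM in PA. It fell by 0.44 on the log2 scale (SE 0.050, edgeR FDR = 1.04e-08), to 0.738 of the BSA level, and all PA libraries lay below all BSA libraries. In siErk3 it measured 517, 497 and 549 CPM in BSA and 432, 433 and 415 CPM in PA, a log2 fold change of -0.29 (SE 0.050, FDR = 1.25e-05), which is under the fold criterion. The siMk5 libraries were already lower in BSA, at 460, 448 and 389 CPM, and measured 378, 376 and 402 CPM in PA (log2 fold change -0.17, SE 0.050, FDR = 0.00735), with 1 BSA library inside the PA range. An opposite-strand gene has exons over 592 of the 800 exonic bases of Tnnc2, and counting was by strand.

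Tnnc1 (ENSMUSG00000091898, GRCm39 chr14:30930269-30933686, plus strand) moved less. With siNTC it measured 1056, 1107 and 1089 CPM in BSA and 980, 924 and 972 CPM in PA, a log2 fold change of -0.18 (SE 0.045, edgeR FDR = 0.00159). The siErk3 difference was -0.13 (FDR = 0.0211), from 1078 ± 29.3 to 987 ± 26.3 CPM (SD, n = 3). In siMk5 the levels were 1017 ± 61.2 CPM in BSA and 1025 ± 41.0 CPM in PA, with overlapping libraries and a log2 difference of 0.01 (95% interval -0.08 to 0.10, FDR = 0.879), which was slightly below 0 with DESeq2's size factors.

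Troponin I, the inhibitory subunit, was lower in PA for both genes in siNTC and siErk3, by less than the fold criterion. Tnni1 (ENSMUSG00000026418, GRCm39 chr1:135707172-135738727) had 981, 1007 and 1015 CPM in siNTC BSA and 797, 778 and 787 CPM in siNTC PA, without overlap (log2 fold change -0.35, SE 0.043, edgeR FDR = 4.61e-08). The difference was -0.31 in siErk3 (FDR = 4.2e-07) and -0.17 in siMk5 (FDR = 0.00153). Tnni2 (ENSMUSG00000031097, GRCm39 chr7:141995545-141998147) had 411, 403 and 392.1 CPM in siNTC BSA and 326, 305 and 324 CPM in siNTC PA, also without overlap (-0.34, SE 0.055, FDR = 5.25e-06). In siErk3 the difference was -0.24 (FDR = 0.000499), while in siMk5 the libraries overlapped, at 346 ± 30.4 CPM in BSA and 328 ± 19.9 CPM in PA (-0.08, FDR = 0.257).

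The troponin T genes, which encode the tropomyosin-binding subunit, followed the same order over the siRNA groups. For the fast form Tnnt3 (ENSMUSG00000061723, GRCm39 chr7:142052573-142069746) the log2 fold change with PA was -0.35 in siNTC (SE 0.051, edgeR FDR = 9.06e-07), -0.28 in siErk3 (FDR = 1.83e-05) and -0.13 in siMk5 (FDR = 0.0305). In siNTC it measured 964, 905 and 909 CPM in BSA and 736, 716 and 734 CPM in PA, without overlap, while in siMk5 the BSA libraries (739 to 855 CPM) and the PA libraries (719 to 781 CPM) overlapped. For the slow form Tnnt1 (ENSMUSG00000064179, GRCm39 chr7:4507569-4519381) the differences were -0.28 (SE 0.053, FDR = 5.35e-05), -0.24 (FDR = 0.000296) and -0.06 (FDR = 0.412). For the cardiac form Tnnt2 (ENSMUSG00000026414, GRCm39 chr1:135764092-135779998) they were -0.25 (SE 0.046, FDR = 3.61e-05), -0.19 (FDR = 0.000647) and -0.05 (FDR = 0.403). Tnnt2 measured 1111, 1171 and 1170.5 CPM in siNTC BSA and 993, 932 and 988 CPM in siNTC PA. It had the most counts of the troponin T genes in both media, but also the longest annotated exons. These span 7752 bases, against 1583 in Tnnt3 and 2204 in Tnnt1. Per kilobase Tnnt2 was the lowest of them, at 148 RPKM in siNTC BSA against 585 for Tnnt3 and 213 for Tnnt1. In siNTC PA the values were 125, 460 and 176 RPKM. The log2 fold change of Tnnt2 in siMk5 is above 0 with library totals alone.

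**Figure D2:**
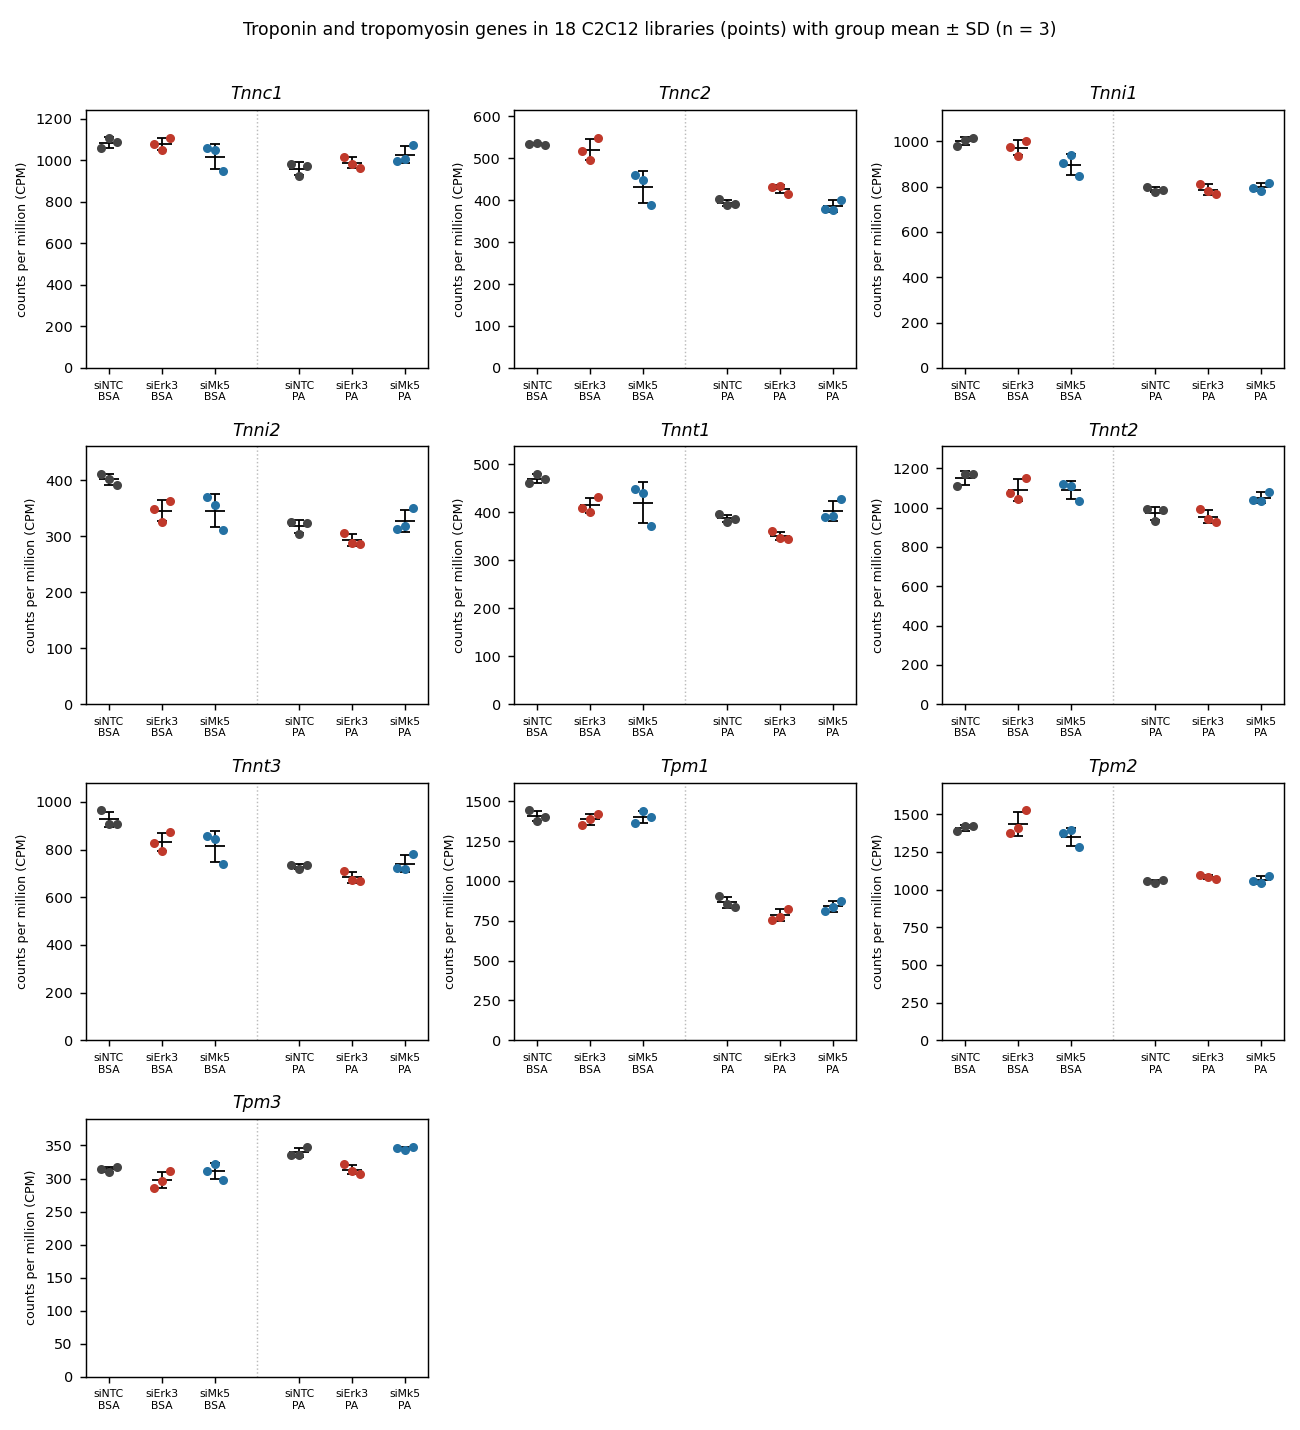
Level of each gene in CPM (vertical axes, starting at 0) in the 18 libraries, by siRNA and medium. Points are libraries, and the bars give the group mean ± SD (n = 3). Tpm1 and Tpm2 show the widest gap between BSA and PA, and 1 siMk5 BSA library lies lowest of its group for the 7 troponins.

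The tropomyosin genes took 3 different courses. Tpm1 (ENSMUSG00000032366, GRCm39 chr9:66929872-66956688, minus strand) measured 1443, 1378 and 1403 CPM in siNTC BSA and 904, 857 and 835 CPM in siNTC PA. It fell by 0.70 on the log2 scale (SE 0.045, edgeR FDR = 2.74e-14), to 0.614 of the BSA level. In siErk3 it went from 1350, 1392 and 1421 CPM to 754, 773 and 826 CPM and fell by 0.82 (SE 0.045, FDR = 5.69e-16). In siMk5 it went from 1364.5, 1438 and 1399 CPM to 810.5, 836 and 877 CPM and fell by 0.74 (SE 0.045, FDR = 1.02e-14). The highest of the 9 PA libraries lay below the lowest of the 9 BSA libraries.

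Tpm2 (ENSMUSG00000028464, GRCm39 chr4:43514711-43523765) fell in siNTC by 0.42 (SE 0.043, edgeR FDR = 1.16e-09), from 1387, 1424 and 1420 CPM to 1058, 1044 and 1064 CPM. In siErk3 it fell by 0.41 (FDR = 1.92e-09), though without siErk3 BSA replicate 3, the highest library at 1526 CPM, the log2 fold change was -0.37 and under the fold criterion. In siMk5 it was lower by a log2 fold change of -0.35 (FDR = 4.56e-08), just under that criterion, and passed it at -0.38 without siMk5 BSA replicate 3. The levels of Tpm2 in PA were 1055.5 ± 10.1, 1084 ± 13.4 and 1063 ± 25.2 CPM (SD, n = 3) in siNTC, siErk3 and siMk5.

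Tpm3 (ENSMUSG00000027940, GRCm39 chr3:89979956-90008209) was the one member at a higher level in PA in all 3 siRNA groups, by small amounts and not under every scaling. It measured 315, 309 and 317 CPM in siNTC BSA and 336, 335 and 348 CPM in siNTC PA (log2 fold change 0.12, SE 0.042, edgeR FDR = 0.024). The difference was 0.08 in siErk3 (FDR = 0.143) and 0.15 in siMk5 (FDR = 0.00281). With library totals alone, which lowered the median of all genes by 0.099 in siNTC and 0.106 in siErk3, the values of Tpm3 were 0.01, -0.03 and 0.21. Of its 50-base stretches, 15.4% also occur in transcripts of Tpm3-rs7, a related gene with 384 counts in all, and no more than 0.0543% of those of any other member occur in another member or relative compared.

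The siMk5 libraries showed the smallest PA differences of the 7 troponin genes, but the difference between the siRNA groups did not pass its own test. The interaction of siMk5 with PA was above 0 for 9 of 10 members, with a median of 0.19 against -0.02 for all genes. The largest was 0.27 for Tnnc2 (95% interval 0.13 to 0.41, edgeR FDR = 0.13). None of the 10 was called by edgeR or DESeq2, against 0.211% of all genes, and none passed the FDR alone in edgeR, against 0.225% of all genes. At an unadjusted p under 0.05, 7 of 10 passed in edgeR, and 1 passed the FDR alone in DESeq2. The shares of all genes under these rules were not computed. The 7 are the troponins, which varied together within groups (median r 0.88), so they do not count as separate results. With library totals alone Tnnc2, Tnni2 and Tnnt1 were called. The 18S share was 8.39% to 12.874% in siMk5 BSA and 1.709% to 6.692% in siMk5 PA. With it as a covariate the interaction of Tnnc2 was 0.31 (FDR = 0.357), and edgeR called 0 of all genes in place of 46. For the interaction of siErk3 with PA, 8 of 10 members were above 0 with a median of 0.05, none was called by either tool or passed the FDR alone (0.0367% and 0.0413% of all genes), and 1 had an unadjusted p under 0.05.

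Silencing of Erk3 or Mk5 changed no member by both criteria in either medium. The members' log2 fold changes with siErk3 lay between -0.22 and 0.02 (BSA) and between -0.14 and 0.11 (PA), and those with siMk5 between -0.31 and -0.01 (BSA) and between -0.04 and 0.12 (PA). Both silencings are read against the same siNTC libraries. Libraries did not overlap for 3 members with siErk3 in BSA and 6 in PA, against 17.4% and 12.1% of all genes. With siMk5 the counts were 5 and 2, against 12.3% and 12% of all genes. The members varied together, so these counts are not of independent genes. The called members were 0 of 10 in each of the 4 comparisons by edgeR and by DESeq2, against 0.785% and 0.556% of all genes with siErk3 in BSA and PA and 0.0643% and 0.547% with siMk5. At the FDR alone edgeR passed 1 member with siErk3 in BSA (1.21% of all genes), 0 in PA (0.854%), 1 with siMk5 in BSA (0.0827%) and 0 in PA (0.776%), and the corresponding DESeq2 counts were 2, 0, 4 and 0. Members with an unadjusted p under 0.05 numbered 3, 5, 5 and 2 in edgeR. The shares of all genes at that p, and at the FDR alone in DESeq2, were not computed. These counts therefore have no background beside them.

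The member that passed the FDR with siMk5 in BSA was Tnnc2, the fast calcium-binding subunit. Its 460, 448 and 389 CPM all lay below the 534, 537 and 533 CPM of siNTC BSA (log2 fold change -0.31, SE 0.050, edgeR FDR = 0.00318). Without siMk5 BSA replicate 3, the lowest of them, the log2 fold change was -0.24 (FDR = 0.0577). With the 18S share as a covariate it was -0.33 (FDR = 0.0115). That share was 8.39% to 12.874% in siMk5 BSA and 2.56% to 7.167% in siNTC BSA, without overlap. Share and siRNA therefore cannot be told apart in this comparison either. In PA the difference of Tnnc2 was -0.03 (95% interval -0.13 to 0.07, FDR = 0.976). In BSA, 10 of 10 members were below 0 with siMk5, also under the other scalings, with a median of -0.125 against 0.014 for all genes. With 1 library left out, Tpm1 ranged from -0.035 to 0.011 and Tpm3 from -0.047 to 0.015. The members are not independent, as the troponins varied together within groups (median r 0.88).

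The member that passed with siErk3 in BSA was Tnni2, the fast inhibitory subunit. It measured 349, 326 and 363 CPM against 411, 403 and 392.1 CPM in siNTC, without overlap (log2 fold change -0.22, SE 0.055, edgeR FDR = 0.0419). When 1 of the 6 libraries was left out the FDR was 0.0484 to 0.312 and stayed below 0.05 in 1 of these 6 fits, without siErk3 BSA replicate 3. With the 18S share as a covariate the log2 fold change was -0.19 (FDR = 0.28). In PA the difference was -0.12 (FDR = 0.572). Tnni1 differed by -0.04 in BSA (95% interval -0.13 to 0.04, FDR = 0.792), with overlapping libraries.

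For the other members the silencing differences in BSA did not pass the FDR in edgeR, while DESeq2 passed Tnnt1 with siErk3 and Tnni1, Tnni2 and Tnnt3 with siMk5, all under the fold criterion. Tnnt3 measured 964, 905 and 909 CPM with siNTC, 828, 796 and 873 CPM with siErk3 and 855, 845 and 739 CPM with siMk5. Both silenced groups lay below the control libraries without overlap (log2 fold change -0.15 and -0.19, SE 0.050 and 0.051, edgeR FDR = 0.196 in each). Tnnt1 was also lower in both silenced groups, at 460, 479 and 469.6 CPM with siNTC, 409, 401 and 432 CPM with siErk3 and 448, 440 and 370 CPM with siMk5 (-0.18 and -0.16, edgeR FDR = 0.113 and 0.441). Tnni1 differed by -0.16 with siMk5 (SE 0.043, FDR = 0.202), at 906, 940 and 845 CPM, all below the siNTC libraries. Tpm1, the member that fell most with PA, differed by -0.02 with siErk3 (95% interval -0.11 to 0.07) and -0.01 with siMk5 (95% interval -0.09 to 0.08) in BSA. In PA Tpm1 was at 784 ± 37.5 CPM with siErk3 and 865 ± 35.3 CPM with siNTC (SD, n = 3), without overlap (-0.14, SE 0.045, FDR = 0.191), and Tpm3 at 314 ± 7.16 and 340 ± 7.06 CPM (-0.12, SE 0.042, FDR = 0.333). Tnnt2 was the member furthest above 0 with siMk5 in PA, at 1052 ± 26.4 against 971 ± 34.2 CPM (0.12, SE 0.046, FDR = 0.557).

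Compared directly, siErk3 and siMk5 differed for 1 member in each medium at the FDR alone and for 0 of 10 members by both criteria in edgeR and in DESeq2. In BSA Tnnc2 was higher in siErk3 than in siMk5, at 521 ± 26.1 against 432 ± 38.2 CPM (SD, n = 3; log2 difference 0.27, SE 0.050, edgeR FDR = 0.00244). With the 18S share as a covariate the difference was 0.32 (FDR = 0.135). That share was 1.497% to 2.964% in siErk3 BSA and 8.39% to 12.874% in siMk5 BSA, so share and siRNA cannot be told apart in this comparison. In PA Tnnt1 was lower in siErk3, at 350.0 ± 9.06 against 403 ± 20.7 CPM (-0.20, SE 0.054, FDR = 0.0472), which stayed below 0.05 in 1 of 6 fits without 1 library. The background was 0.588% of all genes in BSA and 1.03% in PA by both criteria, and 0.818% and 1.54% by the FDR alone. DESeq2 passed 1 and 2 members at the FDR alone, and 2 and 7 members had an unadjusted p under 0.05 in edgeR. The shares of all genes under these last rules were not computed. Libraries did not overlap for 1 member in BSA and 6 in PA, against 15.3% and 14.7% of all genes.

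Ratios of 2 members within a library do not depend on how libraries are scaled, and several showed small shifts between slow or cardiac and fast forms. For 5 pairs the counts per base were divided, and each contrast was tested by a two-sided exact permutation of libraries within media or within siRNAs, with adjustment over the 15 tests. The pairs share genes with the comparisons above and are not independent of them. The smallest p these designs allow is 0.005 for a silencing and 0.00025 for PA. A single medium or siRNA alone, 3 libraries against 3, cannot go below 0.1.

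The ratio of Tnnc1 to Tnnc2 was the clearest among the troponins. It was 1.52, 1.58 and 1.57 in siNTC BSA, 1.60, 1.62 and 1.55 in siErk3 BSA and 1.77, 1.80 and 1.87 in siMk5 BSA. In PA it was 1.87, 1.82 and 1.91 with siNTC, 1.81, 1.74 and 1.79 with siErk3 and 2.03, 2.05 and 2.05 with siMk5. PA raised it 1.15-fold (adjusted permutation p = 0.00187, from the smallest p of the exact test), with no overlap in any of the 3 siRNA groups. With siMk5 it was 1.13-fold higher than with siNTC (adjusted exact permutation p = 0.00937), with no overlap in either medium. For siErk3 against siNTC the fold was 0.986 (adjusted exact permutation p = 0.473).

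The ratio of the slow Tnni1 to the fast Tnni2 differed with siErk3. It was 1.16, 1.19 and 1.15 in siErk3 BSA against 0.992, 1.04 and 1.08 in siNTC BSA, and 1.10, 1.13 and 1.11 in siErk3 PA against 1.02, 1.06 and 1.01 in siNTC PA. The fold was 1.11 over both media (adjusted exact permutation p = 0.00937), with no overlap in either. With siMk5 it was 1.01 (adjusted exact permutation p = 0.654), and with PA 0.962 (adjusted exact permutation p = 0.0592).

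Among the troponin T pairs, the cardiac to fast ratio Tnnt2 to Tnnt3 was 1.05-fold higher with siErk3 and 1.07-fold higher with siMk5 (adjusted exact permutation p = 0.00937 for each), without overlap in either medium. Its 3 siNTC BSA libraries were at 0.235, 0.264 and 0.263, and those of siErk3 BSA at 0.266, 0.268 and 0.269, and 1 control library lay apart from the other 5. Without it, siNTC BSA replicate 1, the log2 ratio difference with siErk3 was 0.0452 in place of 0.0725 (adjusted exact permutation p = 0.0167). With PA it was 1.06-fold higher (adjusted exact permutation p = 0.00375), with no overlap in 2 of 3 siRNA groups. The slow to fast ratio Tnnt1 to Tnnt3 was 1.04-fold higher with PA (adjusted exact permutation p = 0.00375, no overlap in 2 of 3 siRNA groups), and did not pass with siErk3 at 0.973 (adjusted p = 0.188 by the same exact test) or with siMk5 at 1.02 (adjusted p = 0.436 by the same exact test).

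The ratio of Tpm3 to Tpm1 moved most. It rose from 0.233, 0.239 and 0.241 in siNTC BSA to 0.397, 0.417 and 0.444 in siNTC PA, while Tpm1 fell. Over the 3 siRNA groups the fold with PA was 1.83 (adjusted exact permutation p = 0.00187), with no overlap in any. Neither silencing passed, at 0.9895 for siErk3 and 1.02 for siMk5 (adjusted exact permutation p = 0.655 and 0.473).

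**Figure D3:**
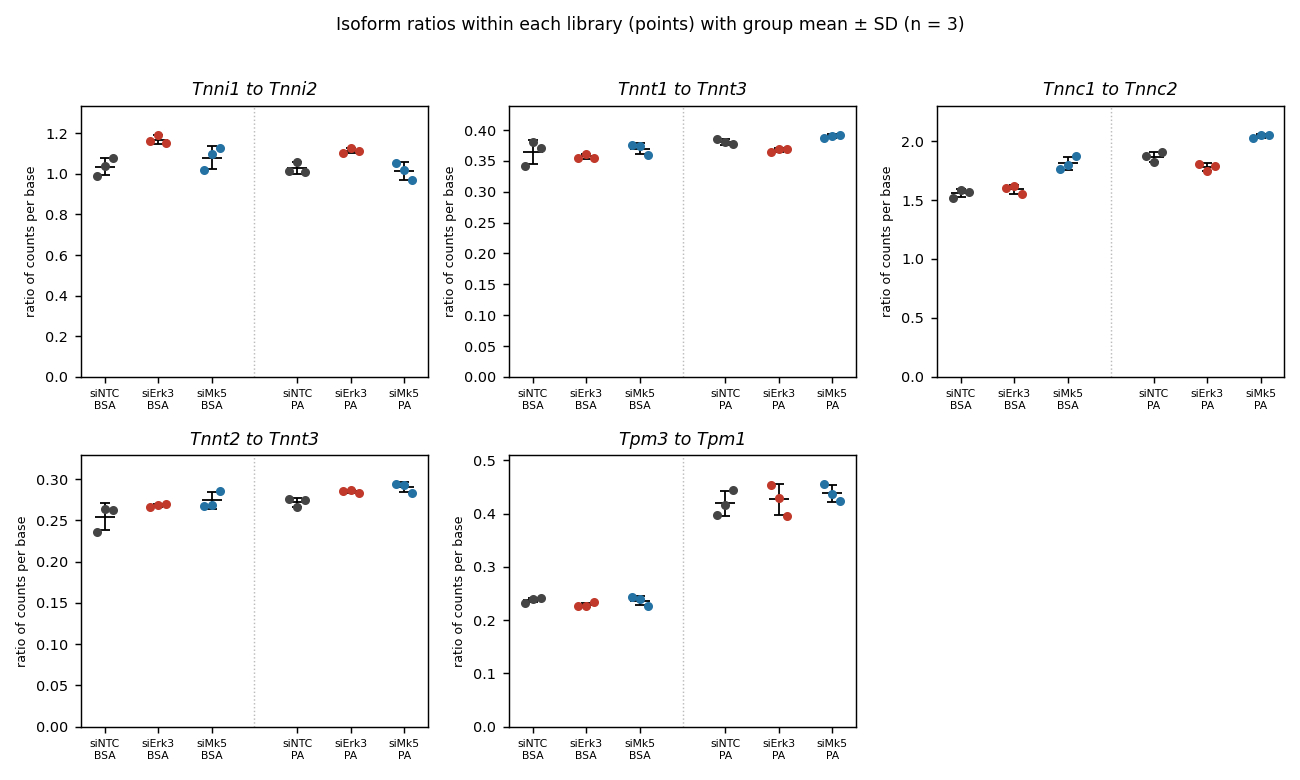
Ratio of counts per base of 2 genes in each library (vertical axes, starting at 0), by siRNA and medium, with the group mean ± SD (n = 3). Tnnc1 to Tnnc2 is higher with siMk5 than with siNTC in both media, Tnni1 to Tnni2 is higher with siErk3, and Tpm3 to Tpm1 is higher in the 9 PA libraries.

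Over the 18 libraries the troponins varied together, and Tpm1 did not share the variation within groups. After the group means were removed, Pearson's r of log2 CPM was 0.714 to 0.956 over the 21 pairs of troponins (median 0.88). Tnni2 and Tnnt3, neighbours on chromosome 7 with 54425 bases between them, had the highest value of 0.956. Tnnt1 and Tnnc2, on chromosomes 7 and 2, had 0.953. Tnni1 and Tnnt2, with 25364 bases between them on chromosome 1, had 0.885. A relation to gene position was not tested. Tpm2 and Tpm3, which moved apart with PA, had 0.867 within groups and -0.666 over all libraries. Tpm1 had -0.021 to 0.206 with the other 9 members within groups, and up to 0.958 (with Tpm2) over all libraries. These correlations are descriptions over 18 libraries in 6 groups of 3, which share their scaling and the differences between groups.

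**Figure D4:**
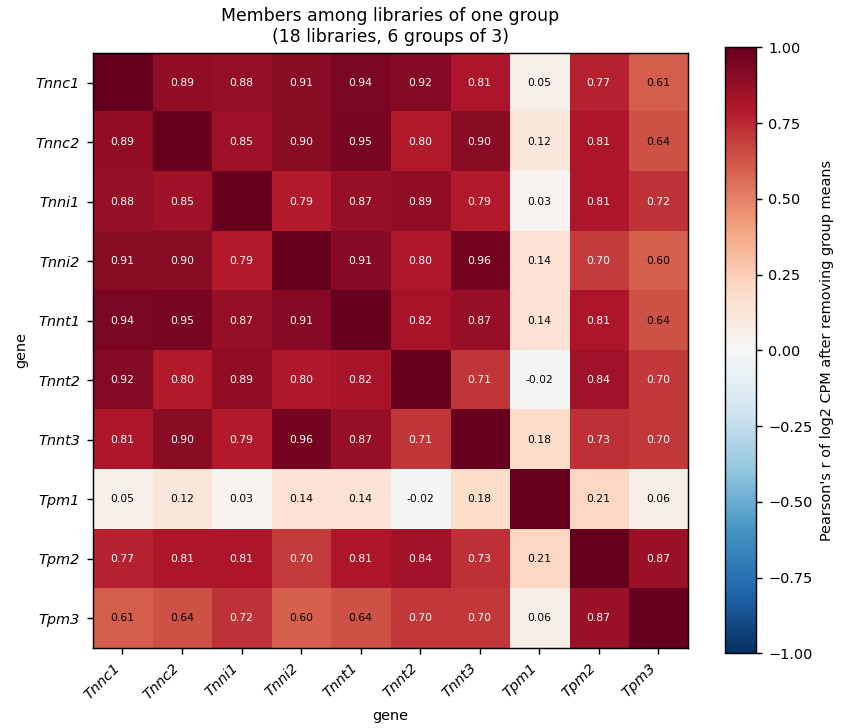
Pearson's r between members (both axes) over the 18 libraries after removing the 6 group means from log2 CPM. The troponins, Tpm2 and Tpm3 have values of 0.599 or more with each other, and the row of Tpm1 lies between -0.021 and 0.206.

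The genes with the most similar pattern over the 18 libraries, among 9332 genes with a mean of at least 10 CPM, included other members for some of the 10 genes. They included none for Tnni1 or Tnnc1. Tnni2 was most like Tnnt3 (r = 0.975), Tnnt1 (0.974) and Chrnd, an acetylcholine receptor subunit (0.944). Tnnc2 was most like Abra (0.935), the fast myosin gene Myh2 (0.934) and Tnni1 (0.922), and Tnni1 was most like Cacnb1 (0.968), a subunit of the muscle calcium channel. No other member was among the 3 genes most like Tpm1, which were Tgfb3 (0.996), Synpo (0.996) and Ldlrad4 (0.995), and none was among those most like Tpm2 (Mid1 at 0.989, Fam171a2 at 0.988 and Ldb3 at 0.987) or Tpm3, led by Ankrd1 (0.942). For Tnnc1 the highest was Stradb at 0.89, the lowest leading value of the 10.

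Of 20 other genes of the thin filament and its assembly, 20 were tested. None was called in the 4 silencing comparisons by edgeR or DESeq2, with 7, 4, 6 and 4 at an unadjusted p under 0.05 in edgeR for siErk3 in BSA and PA and siMk5 in BSA and PA. At the FDR alone edgeR passed Actc1 with siErk3 in BSA (log2 fold change 0.20, FDR = 0.00798, against 1.21% of all genes). In PA it passed Klhl41 (-0.22, FDR = 0.0452, against 0.854%), while Actc1 was at 0.16 (FDR = 0.0555). With siMk5 the lowest edgeR FDR was 0.278 in BSA and 0.259 in PA. DESeq2 passed 1, 2, 0 and 0 at the FDR alone. For this DESeq2 count and for the unadjusted p, the share of all genes was not computed. With PA 1 rose and 7 fell in siNTC, 0 and 6 in siErk3, and 0 and 4 in siMk5, which is 40%, 30% and 20% of the list against 30.6%, 32.1% and 29.7% of all genes. The smooth muscle actin gene Acta2 fell by 1.06 on the log2 scale in siNTC (edgeR FDR = 1.06e-13), and Actg2, its enteric relative, fell by 1.51 (FDR = 3.44e-15). Actc1, the cardiac actin gene, fell by 0.45 in siNTC (FDR = 9.36e-11) and by 0.49 in siErk3 (FDR = 1.58e-11). The skeletal actin gene Acta1, singled out after its values were seen, had a log2 fold change of -0.08 in siNTC (FDR = 0.256). Nrap, likewise named after its values were seen, was the 1 gene that rose, by 0.53 (FDR = 4.27e-07).

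Tpm4, the remaining tropomyosin gene, whose product is mainly a non-muscle form, fell with PA in all 3 siRNA groups. It went from 618 ± 8.39 to 437 ± 7.06 CPM in siNTC (SD, n = 3; fell by 0.50, SE 0.040, edgeR FDR = 3.65e-12) and fell by 0.67 in siErk3 (FDR = 4.02e-15) and by 0.59 in siMk5 (FDR = 8.8e-14). Tnni3 was called lower in siNTC (fell by 1.14, SE 0.35, FDR = 0.00735), at 0.96 ± 0.28 against 0.42 ± 0.11 CPM, from a handful of counts per library.

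Of 20 regulators of muscle differentiation and fiber type, 20 were tested. With PA 9, 12 and 11 of them fell in siNTC, siErk3 and siMk5, and 3 rose in each, which is 60%, 75% and 70% of the list against 30.6%, 32.1% and 29.7% of all genes. Among those with the smallest FDR in siNTC, Tbx15 fell by 0.69, Six4 by 0.70, Myog by 0.59 and Myod1 by 0.91 on the log2 scale (edgeR FDR = 2.05e-13, 3.26e-13, 6.7e-13 and 1.46e-12). Myog and Myod1 are myogenic factors that bind E-boxes, and Six4 is a homeobox factor of muscle. The 3 that rose, named after their values were seen, were Nr4a1 (1.24), Hdac4 (0.68) and Rcan1 (0.62), a calcineurin target. With siErk3 1 of 20 was called in each medium, Vgll2, a cofactor of the Tead family, which rose by 0.64 in BSA (SE 0.094, FDR = 9.85e-05) and by 0.48 in PA (SE 0.093, FDR = 0.00472), at 8.50 and 9.25 CPM in siNTC. With siMk5 none of the 20 was called in either medium by edgeR or DESeq2, and 3 had an unadjusted p under 0.05 in each. The share of all genes at that p was not computed.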

How the data were processed

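Counts of read pairs per gene, as the authors deposited them, are not normalized. Per the study's methods, reads were checked with FastQC 0.11.9, trimmed with cutadapt 3.4 and TrimGalore 0.6.7 (quality cutoff 25) and aligned to GRCm39 with STAR 2.7.9a. The count table's header shows featureCounts 2.0.0 with Ensembl 105, strand setting 2 and a mapping quality of at least 3, which with primary alignments can admit pairs that match 2 places. The sample labels name mm10, and coordinates here are those of the GRCm39 count table. The second deposited table holds log2 values, equal to log2 of the count over 1 factor per library plus 1 (relative deviation at most 3.5e-14), and was used only for this check. Columns belonging to other samples numbered 0.

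The 21772 genes at 10 or more counts over all libraries were fitted with edgeR 4.0.16 (limma 3.58.1, R 4.3.3): TMM, 1 quasi-likelihood fit of 18 libraries with a coefficient per group, 11 comparisons and Benjamini-Hochberg adjustment over all genes fitted. The methods used DESeq2 1.34, and DESeq2 1.42.0 was an alternative. SE is the log2 fold change over the root of F. Ratios took counts per annotated base plus 0.5 count. Library totals set the counting error, and the SE and FDR include it. Python 3.11.15, numpy 2.4.6, pandas 2.3.3 and matplotlib 3.10.9 served for the rest. Scripts were tested on simulated data.

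The members and lists were chosen with earlier results of these data known. The text names all members, Mapk6 and Mapkapk5, Tpm4 and Tnni3. The plan also set up to 4 called genes of smallest FDR per list and comparison, and the 3 genes most like each member. Not all of these are printed. Replicate libraries differed by more than sampling noise (chi-square per degree of freedom 2.93 to 56.2). Alternatives were DESeq2, other scalings, filters and call criteria, a replicate block, the 18S share as covariate, only the groups compared, other pseudocounts, and leaving out each library. Proteins were not analysed here.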

Additional observations from a re-analysis of the deposited data

How the results depend on the processing

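Of 1770 values of the members under other settings, 0 changed sign among called values and 63 among values that were not called. Apart from left-out libraries, 955 of 990 kept their sign and call and 35 were called in addition. With 1 library left out, 774 of 780 kept them, 5 were called in addition, and 1 was lost, Tpm2 in siErk3 with PA without siErk3 BSA replicate 3. At the FDR alone, members passing were 1 for siErk3 and 1 for siMk5 against siNTC in BSA, 1 for siErk3 against siMk5 in each medium, and 10, 9 and 6 for PA, and all genes numbered 263 (171 by both criteria) for siErk3 in BSA and 186 (121) in PA. With library totals alone, which moved the median of all genes by -0.106 for siMk5 in BSA, 0.121 for siErk3 against siMk5 in BSA and 0.153 for the interaction of siMk5, all genes called were 90 (14), 369 (128) and 189 (46), and members called were 1, 1 and 3, besides 7 and 5 for PA in siNTC and siErk3. With genes of at least 1 count, all genes called were 208 (121) for siErk3 in PA, 61 (14) for siMk5 in BSA, 201 (128) for siErk3 against siMk5 in BSA, and 72 (8) and 130 (46) for the interactions of siErk3 and siMk5. With the 18S share as a covariate they were 111 (171) for siErk3 in BSA, 78 (128) for siErk3 against siMk5 in BSA, and 29 (8) and 0 (46) for the interactions. With only the groups compared they were 71 (121) for siErk3 in PA and 4 (8) for the interaction of siErk3, which gave 4 with DESeq2's size factors and 0 with edgeR's expression filter. The cause of these shifts was not tested.

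The log2 ratio of Tnnc1 to Tnnc2 differed by 0.0301 in BSA alone and -0.0701 in PA alone with siErk3, by 0.2171 and 0.1302 with siMk5, and with PA by 0.261 in siNTC alone and 0.1608 in siErk3 alone. Without 1 library, all genes called ranged from 113 to 144 for siErk3 in BSA, 6 to 25 for siMk5 in BSA, 0 to 24 and 22 to 67 for the interactions of siErk3 and siMk5. Members called with PA ranged from 3 to 5 in siNTC (5 without siNTC BSA replicate 3), 1 to 2 in siErk3 and 1 to 2 in siMk5 (2 without siMk5 BSA replicate 3). The log2 ratio of Tnni1 to Tnni2 with PA ranged from -0.0702 to -0.0456 and passed without siNTC BSA replicate 1, siMk5 BSA replicate 1 or siNTC PA replicate 2, and that of Tnnt1 to Tnnt3 with siErk3 ranged from -0.0621 to -0.0246 and passed without siNTC BSA replicate 1.

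Replicate numbers did not pair the libraries: over 27 pairs r of the deviations was -0.665 to 0.579. With the replicate block the members called stayed at 3, 2 and 1 for PA and 0 elsewhere. Under sign changes within numbered pairs the 4 silencing ratios that passed (0.1442 for Tnni1 to Tnni2 with siErk3, 0.1737 for Tnnc1 to Tnnc2 with siMk5, 0.0725 and 0.1012 for Tnnt2 to Tnnt3) had an adjusted exact p of 0.0586, each from the smallest p that 6 pairs allow, so this says nothing about their stability, and Tnnt1 in siErk3 against siMk5 in PA had an edgeR FDR of 0.0561 with the block.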
